A study of Mus musculus with 2 samples.

Results

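The clustered protocadherins are 57 protein-coding genes that lie side by side on mouse chromosome 18, of 21938 protein-coding genes in the annotation (GENCODE vM21, build mm10). They were defined by symbol and chromosome, with earlier results of these data known. They are 14 genes whose symbol starts with Pcdha (alpha), 22 with Pcdhb (beta) and 21 with Pcdhg (gamma), all on the forward strand. The measurements are the open chromatin maps of 2 DNase-seq libraries from mouse liver at embryonic day 13.5, biological replicates 1 and 2 of 1 group. DNase-seq sequences the ends of DNA freed where the enzyme DNase I cuts accessible chromatin. Both libraries are labelled strain C57BL/6N,129, LCR deletion and HET globin mutation. LCR is not spelled out there and is read as locus control region, the distal enhancers of beta-globin. The sources used here do not state how far the deletion reaches, what the globin mutation is or which alleles each embryo carried. The biosamples differ but carry the same donor identifier, sex was not collected, and there is no control group, so nothing below can be ascribed to the genotype and no comparison carries a p-value.

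Clustered protocadherins are cell surface adhesion proteins of the cadherin superfamily, best known in neurons. In the alpha and gamma clusters each gene has its own large variable exon, with its own promoter, which is spliced to 3 constant exons shared by the whole cluster. The beta genes are single-exon genes with no constant part. A neuron uses a small, partly random set of these promoters, and the resulting mix of proteins lets its branches tell themselves from those of other cells. Promoter choice in the brain is known to involve the DNA-binding protein CTCF, the ring complex cohesin, distal enhancers and DNA methylation. The genes with c in the suffix (Pcdhac1, Pcdhac2, Pcdhgc3, Pcdhgc4 and Pcdhgc5) are called C-type, and they lie closest to the constant exons and are used more broadly than the others. The fetal liver at this age is mainly a red cell forming organ.

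At the variable exon starts almost no open chromatin was found. A peak within 1000 bases of the start of the variable exon was present at 1 of 57 members in replicate 1, at 2 of 57 in replicate 2 and at 1 of 57 in both, and 55 members had none in either library. Over all protein-coding genes, the share with a peak that near to any start was 58.5% in replicate 1, 55.4% in replicate 2 and 54.1% in both. With only the first start of each gene counted, the share in both was 49.7%. The member open in both libraries was Pcdhgc3, a C-type gamma gene, and the member with a peak in replicate 2 alone was Pcdhac1, a C-type alpha gene. The remaining 13 alpha, all 22 beta and the remaining 20 gamma genes had no promoter peak. In these bulk libraries a site open in few cells and a site weakly open in many cannot be told apart.

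The deposited false discovery rates of cleavage gave the same members. Only stretches with a rate under 0.05 are listed. Nearly every such stretch of the region held a peak, and both derive from the same alignments, so the rates are no independent measure. Such a stretch lay within 1000 bases of the variable exon start of Pcdhgc3 alone in replicate 1, and of Pcdhgc3 and Pcdhac1 in replicate 2. The same held for 55.2% of all protein-coding genes in replicate 1 and 52.2% in replicate 2, counted at the first start. None of the 55 members without a promoter peak had a single listed base in that window, so none of them is named by its cover. Most of the reference sequence of the 57 windows occurs once: a median of 3.92% of their 36-base words recurred elsewhere in the genome (10.3% in alpha, 0.0255% in beta, 1.17% in gamma). Whether reads were lost in these windows was not tested. The highest share was 24.4%, at Pcdha7, so that at least 75.6% of the words in every member's window occur once. Of 439 protein-coding starts taken at every 50th place, the median share was 0.763%, and 39 had over 25% recurring words, a level that no member reached.

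Along the 912 kb from the first base of Pcdha1 to the last base of the gamma cluster (chr18:36930184-37841873), replicate 1 had 7 peaks and replicate 2 had 5, of which 4 were shared by at least 1 base. That is 7.68 and 5.48 peaks per Mb, against 17.8 and 13.8 per Mb over the genome. The peaks were unevenly spread. The alpha cluster (257 kb) held 0 peaks in replicate 1 and 1 in replicate 2, the beta cluster (260 kb) 1 and 0, and the gamma cluster (180 kb) 4 and 3, or 22.2 and 16.7 per Mb. The gaps between clusters held 1 and 0 (alpha to beta) and 1 and 1 (beta to gamma). Bases with a listed false discovery rate numbered 1921 and 1475 per Mb in the region and 6114 and 5479 per Mb in the genome. The 100000 bases before the alpha cluster held no peak in either library, and the 100000 bases after the gamma cluster, which hold the gene Diaph1, held 4 and 5.

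**Figure D1:**
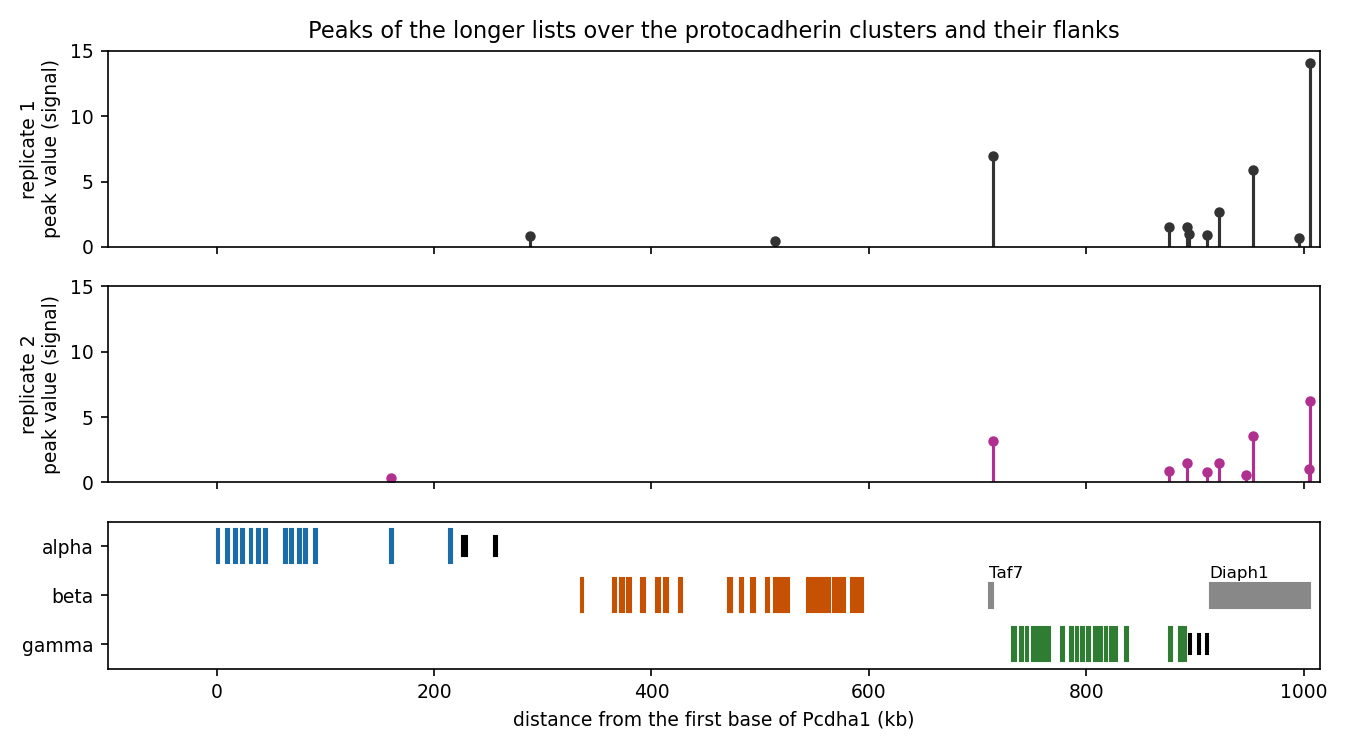
Peak values (the authors' signal) in replicate 1 (top) and replicate 2 (middle) against the distance in kb from the first base of Pcdha1, with variable exons in colour, constant exons in black and the genes Taf7 and Diaph1 in grey (bottom). Replicate 1 has 0 peaks in the alpha cluster and replicate 2 has 0 in the beta cluster, and the highest values stand at Taf7 and in Diaph1.

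Pcdhgc3 was the only member promoter open in both libraries. Its variable exon spans chr18:37806410-37808977. The peak had a value of 1.56 in replicate 1 (95% interval 1.30 to 1.86, 127 reads if 1 step of the value is 1 read) and 0.846 in replicate 2 (0.647 to 1.09, 61 reads). Peak values are the authors' signal, and these intervals cover counting error only. Both values are ordinary for their libraries, at the 59th percentile of peaks in replicate 1 and the 31.4th in replicate 2, and the counting intervals do not overlap. In replicate 1 the peak ran from 169 bases before to 70 bases after the start of the exon, and its lowest listed false discovery rate was 7.14e-06. In replicate 2 that rate was 0.00534, and the peak was absent from the shorter list, the authors' stricter one. Replicate 1 had 1 footprint there, a short protected stretch within the open site, and replicate 2 had 0. Pcdhgc3 also had the highest ratio of observed to expected CpG of all members, 0.835.

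Pcdhac1, the first of the pair of C-type genes at the end of the alpha array, had a peak in replicate 2 alone. The variable exon spans chr18:37090013-37092571, and the peak began 134 bases into it and was 34 bases long. Its value was 0.333 (0.213 to 0.495, 24 reads), at the 2.68th percentile of that library, with a lowest listed rate of 0.0157. It was absent from the shorter list, held no footprint, and nothing was listed there in replicate 1.

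The alpha constant exons carried no peak in either library, whereas those of gamma did. Between the last variable exon of the gamma cluster, that of Pcdhgc5, and gamma constant exon 1 lay the shared site whose values were closest between the libraries (chr18:37822541-37822780, the extent of the peak in replicate 2, which contains that in replicate 1). It is intronic in all 21 gamma genes, 407 bases after the Pcdhgc5 exon and 2241 bases before the constant exon. Its value was 1.53 in replicate 1 (1.27 to 1.82) and 1.46 in replicate 2 (1.19 to 1.76), and the intervals overlap. It was in the shorter lists of both libraries, with lowest listed rates of 2.06e-05 and 1.51e-05. Each library had 4 footprints at this site, and 2 of them had identical positions in both. Pcdhgc5 itself, whose start is 3028 bases away, had no promoter peak and a CpG ratio of 0.251, the lowest of the gamma genes.

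Gamma constant exon 1 (chr18:37825021-37825079), which encodes the start of the shared cytoplasmic part, lay wholly under a peak in replicate 1, all 59 bases of it. The value was 0.961 (0.760 to 1.20) at the 39.4th percentile, with 2 footprints and a lowest listed rate of 0.0119. The start of a non-coding gene, Gm38182, lies within 1000 bases of it, so the site was counted as a start of another gene. Replicate 2 had no peak there, only 20 listed bases with a lowest rate of 0.0351. Gamma constant exon 2 had no peak. In gamma constant exon 3 (chr18:37839903-37841873), which ends with the long shared 3′ UTR, a peak stood 1215 bases past the last coding base. Its value was 0.912 in replicate 1 (0.716 to 1.14) and 0.818 in replicate 2 (0.623 to 1.05), again with overlapping intervals, and neither shorter list held it.

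The open sites went on past the gamma cluster into Diaph1, which encodes a formin that builds actin filaments and runs on the opposite strand. The first of them, 10.3 kb past the last constant exon (chr18:37852221-37852420), had a value of 2.64 in replicate 1 (2.30 to 3.01) and 1.48 in replicate 2 (1.22 to 1.79), with 3 footprints in each. It lies within 1000 bases of an annotated transcript start of Diaph1 and was counted as a start of another gene. A stronger one 41.7 kb past the region's end had values of 5.91 (5.40 to 6.47) and 3.52 (3.10 to 3.98). The Diaph1 promoter reached 14.1 and 6.21, and the promoter of the next gene, Hdac3, a histone deacetylase, 9.48 and 4.14. Weaker peaks in Diaph1 were seen in 1 library each, with values of 0.665 in replicate 1 and of 0.582 and 0.998 in replicate 2. The peak of 0.998 also lies within 1000 bases of a Diaph1 start. Distal enhancers of the beta and gamma clusters, the HS16 to HS20 elements, are known from the brain to lie downstream of the gamma constant exons. Their coordinates are not in the files, and no site was matched to them.

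**Figure D2:**
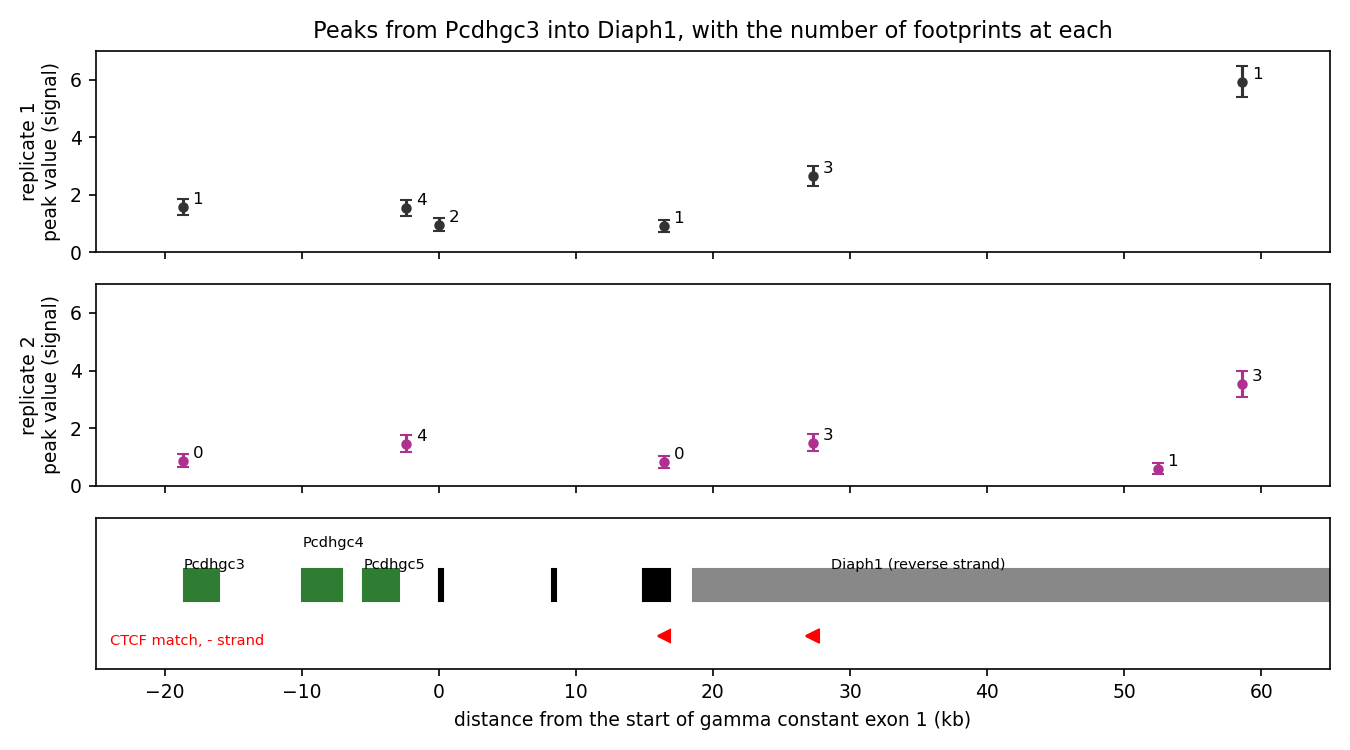
Peak values (the authors' signal) with 95% counting intervals from Pcdhgc3 into Diaph1, against the distance in kb from the start of gamma constant exon 1; numbers beside the points are footprints, black boxes the constant exons and red arrows CTCF consensus matches under a peak. The intronic site just before constant exon 1 has 4 footprints in each library, and Pcdhgc3 has 1 and 0.

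Elsewhere in the region only weak or neighbouring sites were open. Between alpha and beta a single intergenic peak (chr18:37218301-37218460) was called in replicate 1, 30.6 kb after alpha constant exon 3 and 46.5 kb before the start of Pcdhb1. Its value was 0.875 (0.683 to 1.10), it was in the shorter list with a lowest rate of 4.44e-06, and it held no footprint. Replicate 2 had no peak and no listed base there. HS5-1, an enhancer of the alpha cluster known from neurons, lies downstream of the alpha constant exons, and again no coordinates in the files allow a match. In the beta cluster 1 peak lay inside the coding exon of Pcdhb13, 1608 bases from its start, in replicate 1 alone (0.456, 0.321 to 0.628, 37 reads, lowest rate 0.0338).

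Between beta and gamma the promoter of Taf7, a general transcription factor subunit gene and no protocadherin, was open in both libraries. Its value was 6.97 (6.41 to 7.57) in replicate 1 and 3.13 (2.74 to 3.57) in replicate 2, the highest values of the region. Over the stretch covered by either library's peak there were 4 and 2 footprints. In each library 1 of them lay outside that library's own peak. The peak ended 17473 bases before the start of Pcdhga1, the first gamma gene, which had no peak. Slc25a2, a mitochondrial carrier gene beside Taf7, had no promoter peak. With Taf7 left aside, the region held 6 peaks in replicate 1 and 4 in replicate 2.

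The shared sites did not scale alike between libraries. Over the 26687 peaks shared across the genome, the median log2 ratio of replicate 2 to replicate 1 was -0.50, and the authors' scaling between libraries is not known here. From each ratio the local median of peaks near it in height was therefore taken off. What was left, the excess ratio of replicate 2 to replicate 1, was -0.57 at Pcdhgc3, the 8.01th percentile of shared peaks, and -0.47 at Taf7, the 12.1th percentile. It was 0.35 at the intronic gamma site (81.3th percentile) and 0.13 in gamma constant exon 3 (62.9th percentile). The lower and upper quartiles over all shared peaks were -0.27 and 0.26. Pcdhgc3 and Taf7 were thus below that range and the intronic site above it, with 1 library against 1 library and no test.

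Most footprints of the region lay at peaks. Both derive from the same alignments, so footprints are no independent measure of open chromatin. The region held 13 footprints in replicate 1 and 6 in replicate 2, 14.3 and 6.58 per Mb against 46.8 and 35.7 per Mb in the genome, and 11 and 5 of them overlapped a peak. None lay in the alpha or beta cluster in either library, while gamma held 8 and 4.

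The ratio of observed to expected CpG separated alpha from beta, and gamma overlapped both. Promoters rich in CpG are as a rule open in most tissues, so the ratio of observed to expected CpG was computed for each window of 1000 bases on either side of the start. It ranged from 0.520 to 0.702 in alpha (median 0.641), from 0.138 to 0.475 in beta (median 0.335) and from 0.251 to 0.835 in gamma (median 0.513). The median over all protein-coding starts was 0.474, close to the 0.478 of the members. GC content was lower than elsewhere, with medians of 42% in alpha, 42.1% in beta and 45.5% in gamma against 51.2%.

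Fewer members were open than genes of like CpG ratio. The bands match this ratio alone: GC content, which was lower in the members, was not matched. Of all genes with a ratio under 0.35, 6.78% had a peak in both libraries (589 of 8683), and 0 of the 13 members in that band did, 12 of them beta genes. Between 0.35 and 0.65 the share was 70.2% (5225 of 7445), and 0 of 33 members were open. At 0.65 or more it was 87.7% (5093 of 5810), and 1 of 11 members was open, Pcdhgc3. The 10 closed members of this last band were 7 alpha genes, among them Pcdha8 (0.702), Pcdhac2 (0.687) and Pcdha5 (0.668), and 3 gamma genes, Pcdhga11 (0.767), Pcdhga10 (0.701) and Pcdhga5 (0.665). These counts are descriptions: neighbouring members share sequence and are not independent of each other.

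**Figure D3:**
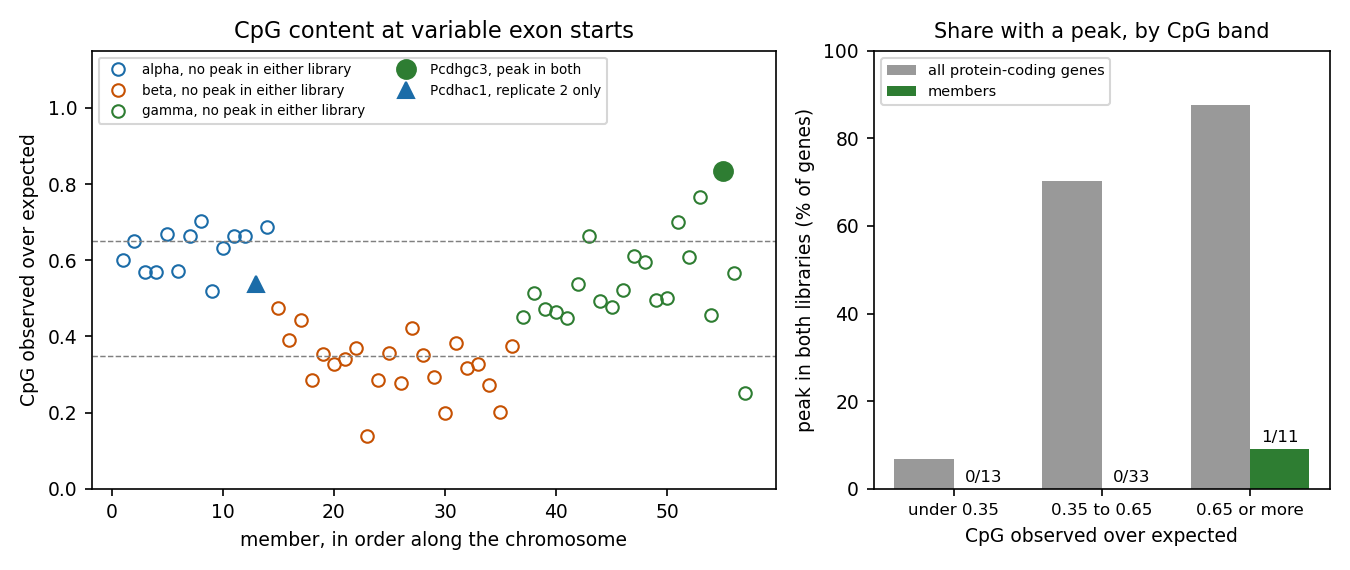
Left, the ratio of observed to expected CpG (no unit) within 1000 bases of each variable exon start, members in chromosome order, with dashed lines at 0.35 and 0.65; right, the percentage of all protein-coding genes (grey) and of members (green) with a peak in both libraries in each CpG band. Pcdhgc3 is the member with the highest ratio, and 0 of 33 members are open in the middle band.

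Other clustered and related families were set beside the members, with a ratio of 0.35 or more at the first start. Of 43 such protocadherin genes, 1 was open in both libraries (2.33%), and over all genes 77.8% were. The Hox genes, which set position along the body axis, had 1 of 36 open (2.78%), Hoxa7 (1.76 and 1.47). Of the cytochrome P450 genes, many of them liver enzymes, 7 of 14 were open (50%). Over the whole P450 family the highest promoter values in replicate 1 were those of Cyp46a1 (9.25 and 4.09), Cyp20a1 (4.9 and 4.16) and Cyp39a1 (2.93 and 1.18). Of the non-clustered protocadherins 2 of 11 were open (18.2%). So small a share of open promoters at this CpG ratio was thus seen in the Hox clusters too.

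CTCF consensus matches were found mainly in alpha. The search used the CTCF core consensus of 12 bases on both strands with at most 1 mismatch, within 1000 bases of the variable exon start. It found a match at 13 of 57 members (22.8%), and at 20.6% of all protein-coding starts. By cluster it was 10 of 14 alpha genes (71.4%), 1 of 22 beta genes (4.55%) and 2 of 21 gamma genes (9.52%). In 9 of the alpha genes the match stood on the gene's strand, 456 to 578 bases after the start of the variable exon. In 6 of these it had no mismatch: Pcdha1, Pcdha4, Pcdha6, Pcdha7, Pcdha8 and Pcdha12. No other member had a match without a mismatch, and 377 of all 21938 protein-coding starts did. Pcdhac1 had a match on the opposite strand, 715 bases in. A CTCF site within the variable exon is known for the alpha genes from neurons, where it accompanies a CTCF site in the promoter. All 13 matches lay after the start of the variable exon, from 178 bases (Pcdhb8) to 838 bases (Pcdhgb7). The search thus found no match before any start, and a member without a match may have a CTCF site that this consensus misses. In these livers no peak lay over any of the 13 matches, and a match is a sequence description, not a bound site.

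Under the open sites, all 5 CTCF matches stood on the strand opposite to the protocadherins, each with 1 mismatch. They were in the intergenic peak after alpha, in gamma constant exon 3, in the first Diaph1 site, which had 2, and at the Diaph1 promoter. A footprint lay over the 3 matches in Diaph1 in both libraries and over neither of the other 2. The intronic gamma site, Pcdhgc3 and Taf7 held no match, which says only that these letters are not in those windows.

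**Figure D4:**
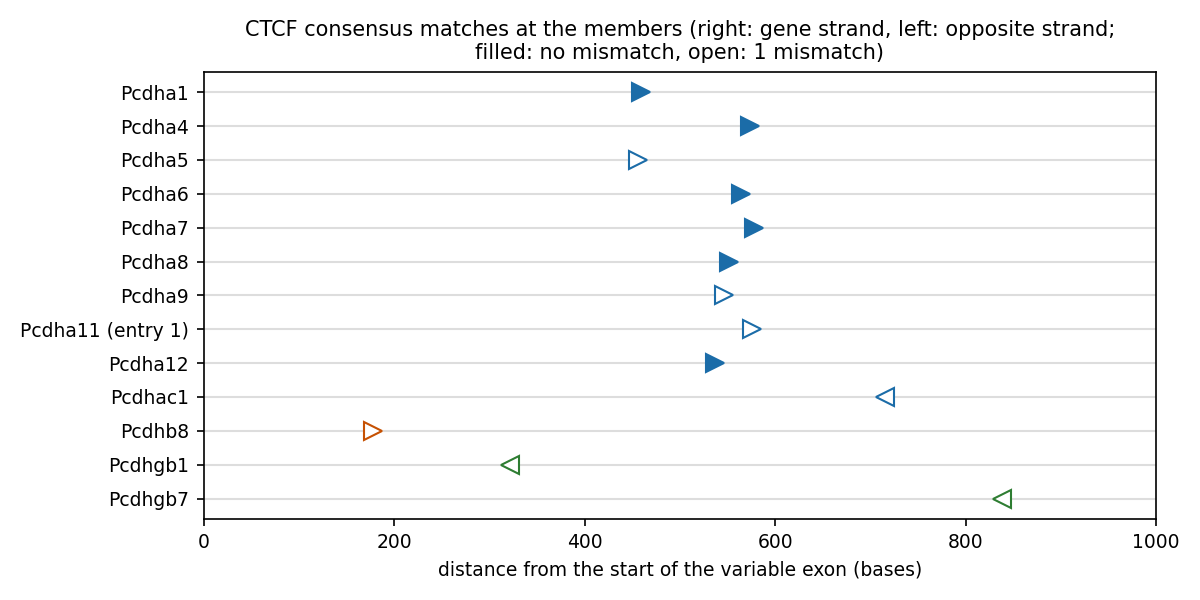
Distance in bases from the start of the variable exon to the CTCF consensus match of the 13 members that have one, coloured by cluster; arrows to the right are on the gene's strand, and filled arrows have no mismatch. The 9 alpha matches on the gene's strand stand between 456 and 578 bases.

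The listed genes for chromatin architecture, DNA methylation and silencing factors had open promoters themselves. All 21 genes of a list of CTCF, cohesin, DNA methylation and silencing factors had a promoter peak in both libraries, beside 54.1% of all genes. Neither this list nor the signalling list below was matched on CpG ratio. The highest were Stag1 (19.1 in replicate 1 and 9.09 in replicate 2) and Smc3 (19 and 9.79), both cohesin subunit genes. Ctcf had values of 6.19 and 5.61. Smchd1, a chromatin protein known to repress the clusters, had 9.81 and 4.82. Dnmt3b, the DNA methyltransferase known to methylate these promoters in the embryo, had 0.702 and 0.901. An open promoter does not measure the protein.

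Of 12 genes for proteins that act below protocadherins at the membrane, 10 were open in both libraries (83.3%), beside 54.1% of all genes. Pdcd10 was highest in both (20.3 and 6.93). In replicate 1 the next were Axin1 (11.1, and 4.41 in replicate 2), a scaffold of Wnt signalling, and Fyn (9.97 and 5.17), a kinase of the Src family. In replicate 2 the next was Rac1 (5.34, and 8.28 in replicate 1), a small GTPase of the actin skeleton. Ptk2b, a focal adhesion kinase known to be held in check by protocadherins, had a peak in replicate 1 alone (0.936), and Ret, a receptor kinase, had none.

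The non-clustered protocadherins, single genes on several chromosomes, were mostly closed in 1 or both libraries. Of these 12 genes, 7 were open in replicate 1, 5 in replicate 2 and 2 in both, beside 58.5%, 55.4% and 54.1% of all genes. Those 2 were Pcdh17 (2.99 and 1.19) and Pcdh7 (1.13 and 1.40), while Pcdh11x and Pcdh12 had none in either. In at least 1 library 10 of these 12 were open, and 2 of the 57 clustered genes, beside 59.8% of all genes.

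The tissue label was checked by marker lists. Promoter peaks in both libraries were found at 12 of 14 erythroid markers, led by Zfpm1 (26.8 and 12.2), Tfrc (18.1 and 7.46) and Nfe2 (17.9 and 6.72). Gfi1b (2.05) and Alas2 (0.752) had a peak in replicate 1 alone. Peaks in both libraries were found at 4 of 12 hepatoblast markers, with the highest values at Foxa3 (9.41 and 4.33), Cebpa (3.06 and 2.16) and Trf (1.37 and 0.790). Alb and Dlk1 had no promoter peak in either library. Of the endothelial and stromal markers 4 of 11 were open, with Col1a1 (2.42 and 1.40), Reln (1.33 and 1.33) and Lhx2 (1.1 and 1.01) highest and Cdh5, Col3a1 and Des closed. Neuronal markers, the cell type in which protocadherins are best known, were open at 6 of 12 promoters, near the 54.1% of all genes. Their highest values were 1.49 in replicate 1 (Tubb3, with no peak in replicate 2) and 1.12 in replicate 2 (Snap25, 1.11 in replicate 1), and Elavl3, Gad1 and Gad2 had none in either library. Whether a few cells of another type contribute to the peak at Pcdhgc3 was not tested.

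**Figure D5:**
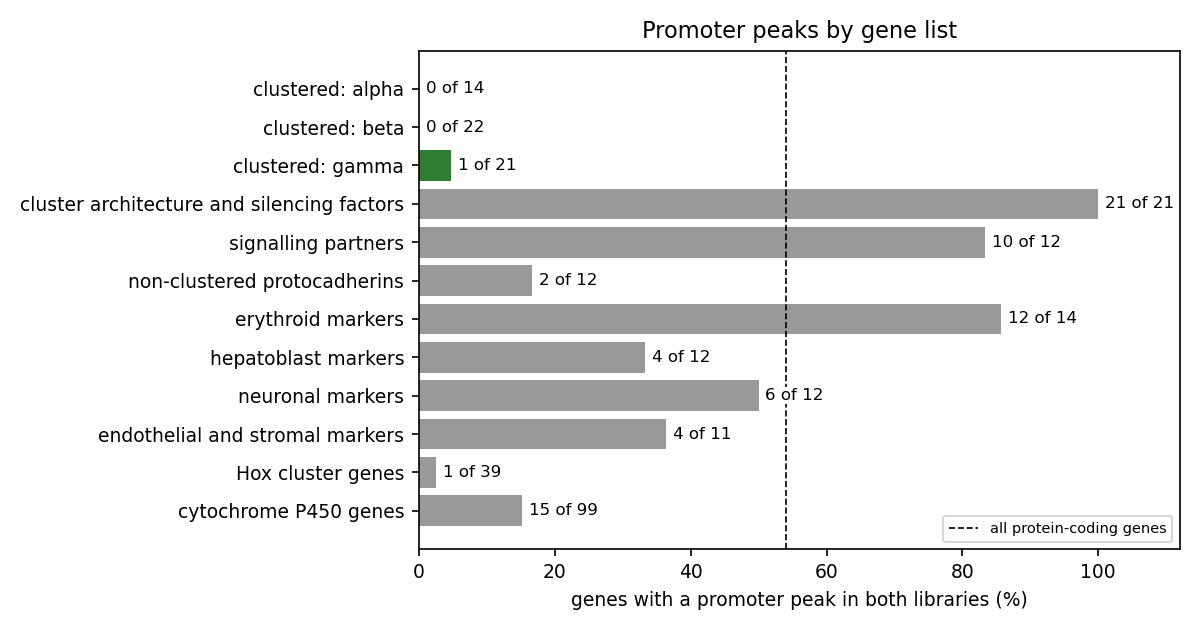
Percentage of genes with a promoter peak in both libraries for the 3 protocadherin clusters (coloured) and for the other gene lists (grey), with counts beside the bars; the dashed line is the 54.1% of all protein-coding genes. The alpha and beta clusters stand at 0 of 14 and 0 of 22, gamma at 1 of 21, and the architecture and silencing factors at 21 of 21.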

How the data were processed

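The authors derived 4 tables per library from that library's own filtered alignments to mm10, per the notes deposited with the files: peaks in a longer and a shorter list, footprint positions, and the false discovery rate of cleavage. Caller, version and thresholds: not given in the sources used here. Peak values are the authors' signal. The deposited false discovery rate is of the q-value type and is listed only under 0.05. The deposited footprint score is a constant, so only positions were used.

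Values are whole multiples of 0.0123 (replicate 1) and 0.0139 (replicate 2), with departures of at most 0.00408 and 0.00482 steps. Were a step worth 1 read per 1e6, the depth was 81.2 and 72.1 times 1e6 reads. This is an assumption, and the 95% Poisson intervals rest on it. The longer lists held 47198 and 36523 peaks (median value 1.23 and 1.25), the shorter lists 29534 and 23395, and there were 123897 and 94430 footprints.

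Variable exons were those with a gene's longest coding stretch (2316 to 2562 bases), and a constant exon is shared by over 50% of a cluster's genes. Of Pcdha11 the annotation has 2 gene entries, both kept. Read-through models such as Gm42416 and the polymorphic pseudogene Pcdhgb8 are no members. Sequence measures came from the RefSeq GRCm38.p6 genome, and no sequence is printed. All members with a promoter peak and all peaks of the region are named, and from each list up to 3 genes with the highest promoter values and up to 3 without a peak, first in the alphabet; some genes this rule picks are not reported here. Ctcf, Smchd1, Dnmt3b, Tet1, Ptk2b, Gfi1b, Alas2, Slc25a2, Hdac3 and the members named by CpG content or CTCF match were named outside this rule, after their values were seen. Members, lists and rules were chosen with earlier results of these data known. There is 1 group and no control, so nothing was tested. The word and motif counters were tested on simulated data. Python 3.11.15, numpy 2.4.6, pandas 2.3.3 and scipy 1.17.1 were used. Alternatives were the shorter lists, the upper 50% of peaks, other distances, overlaps, word lengths and rates, and each replicate alone.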

Additional observations from a re-analysis of the deposited data

How the results depend on the processing

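The count of member promoters open in both libraries, 1, became 0 with the shorter lists and 0 with the upper 50% of peaks, and was 1 at 500 and 2500 bases and at any annotated start. With 1 replicate left out it ranged from 1 to 2, the higher count being replicate 2 alone. Peaks of the region went from 7 to 4 (shorter list), 3 (upper 50%) and 11 (with 100000 bases on each side) in replicate 1, and from 5 to 2, 2 and 10 in replicate 2. Shared peaks went from 4 to 2 under both stricter lists. Promoters with a listed rate in replicate 2 went from 2 to 1 under a rate of 0.01, and CTCF matches from 13 to 6 members with no mismatch. These moves follow from fewer or more peaks, matches or bases being counted. Reciprocal overlap of 50%, footprints wholly inside a peak, windows of 500 bases and words of 50 or 76 bases changed no other count by more than 1.5 times. With 1 median for all shared peaks the median excess ratio of the region went from -0.17 to -0.03, and that of gamma constant exon 3 from 0.13 to 0.34. No paired analysis was possible because there is only 1 group. Depth limits the weak sites: the peaks of Pcdhac1 and Pcdhb13 rest on 24 and 37 reads on the assumed scale.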

Other observations

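Seen from the peaks shared by both libraries, the clusters form long stretches without a shared peak. The following ranks were chosen after the values were seen. The genome had 29586 gaps between neighbouring shared peaks, with a median length of 17980 bases. The gap that holds all 14 alpha and 22 beta members is 842 kb long (chr18:36802041-37644140) and ranked only 526th by length. The peaks called in 1 library alone at Pcdhac1, between alpha and beta, and in Pcdhb13 lie within this gap. By the number of all protein-coding starts that it holds, 40, the gap ranked 14th. By the number of those with a CpG ratio of 0.35 or more, 27, it ranked first of all. Of these starts 23 are members, and the rest are Slc25a2 and the read-through models Gm42416, Gm37013 and Gm37388. The read-through models start inside the variable exons of Pcdha4, Pcdha6 and Pcdha7, so they are not separate places.

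The gap from Taf7 to Pcdhgc3 is 162 kb long, ranked 2957th by length, and holds 18 gamma members, all of them with a ratio of 0.35 or more. By all protein-coding starts, of which it holds 18, this gap ranked 50th. By starts with a ratio of 0.35 or more, also 18, it ranked second. The next were a gap on chromosome Y and an interferon gene gap on chromosome 4, with 12 starts each, and the Hoxd gap on chromosome 2 with 10. These ranks describe 2 libraries and carry no test.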
